A study of Mus musculus with 58 samples.

Results

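ASC2 of castrated males were set against ASC2 of females that kept their ovaries, to ask which autosomal genes differed between the sexes of origin when no testicular hormone was present. ASC2 are adipose stem cells sorted from inguinal white adipose tissue (iWAT) as CD45-/CD31-/CD34+/DPP4+ cells. The members were chosen by their labels and comprised 16 of the 58 bulk RNA-seq libraries of the series, 8 in each group. All mice were C57BL6/J, without a transgene, and were 10 weeks old at collection. The males had been castrated when 4 weeks old, and the females had not been operated on to remove the ovaries. Libraries were made with Smart-seq3, a full-length cDNA protocol, and held between 299330 and 921014 estimated counts in the castrated males (libraries I to P) and between 554669 and 1048937 in the control females (libraries A to H). The paper counts the samples of each group as biological replicates. The labels tie no library to a separate animal, so every p-value below measures the spread between these libraries. The groups also lay in different rows and columns of the plate, so that position and group cannot be told apart.

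The testes make testosterone and the ovaries make estradiol and progesterone, and these steroids act through nuclear receptors that bind DNA at response elements. DPP4+ cells of adipose tissue are fibroblast-like progenitors of the connective tissue septa, known for Pi16, Cd55 and Dpp4 itself and for making collagens, elastic fibre proteins and complement factors. Castrated males and control females therefore differ in sex chromosomes and in ovarian hormones, and both lack the hormones of a testis. They also differ in the operation itself, since no sham operation of the controls was described. These differences cannot be told apart in this comparison.

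The sex and depot of each library were checked first. Reads of 4 Y-linked genes were present in all 8 castrated libraries, with a sum of 55.9 to 100.1 CPM (counts scaled to library size), and Xist, which silences an X chromosome in females, was at 0 to 7.99 CPM. Of the 8 libraries labelled control female, 6 also held at least 3 Y-linked reads, with 36.4 to 65.7 CPM, and C and D held 0. Xist reached at least 15 CPM in 6 of these 8 and was low in A (7.41 CPM) and F (11.2 CPM). The 6 libraries with Y-linked reads thus go against their sex label in this respect. The paper reads low Ddx3y and Eif2s3y counts in control female samples as weak contamination by male RNA. It proposes that these samples can still be used, because Sult1e1 and C7 were low beside control males. Groups are named by their labels throughout. Several results are also given against C and D alone. Tcf21, a transcription factor of visceral fat and not of iWAT, was at 30.5 and 29.9 CPM in C and D and at 8.77 and 21.7 CPM in the castrated libraries I and J, and below 5 CPM in the other 12. I and J also had little Hoxc10, a gene of posterior body regions (6.37 to 7.67 CPM, against 42.8 to 85.4 CPM in the other castrated libraries). These 4 libraries (C, D, I and J) stood apart, and the comparison was repeated without them. No control female library lacked both Y-linked reads and Tcf21 of at least 5 CPM. Without the 4, every control female library left held Y-linked reads, and a comparison against C and D alone uses only libraries with Tcf21. Neither comparison settles both doubts. Of 68 named genes past the threshold, 18 also passed without the 4.

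**Figure D1:**
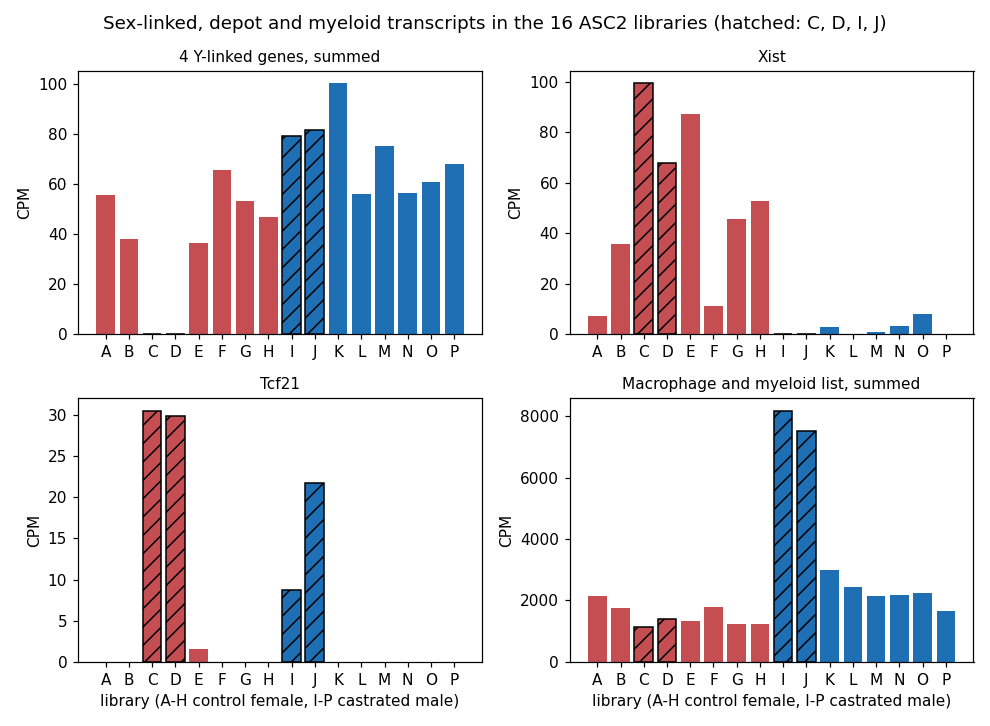
CPM in each of the 16 ASC2 libraries (A to H control female in red, I to P castrated male in blue) for the sum of 4 Y-linked genes, Xist, Tcf21 and the summed macrophage and myeloid list; hatched bars are C, D, I and J. Y-linked reads were present in all but C and D, Tcf21 was high in the 4 hatched libraries, and the myeloid sum reached 8177 CPM in I and 7519 CPM in J.

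The gate and tissue were checked in the same way. The fibroblast gene Pdgfra was at 106 to 427 CPM and Pi16 at 494 to 5094 CPM over the 16 libraries. Ptprc, which encodes CD45, was at 2.71 to 34.4 CPM, and the endothelial gene Pecam1, which encodes CD31, at 5.87 to 54.3 CPM. The summed myeloid list was at 1126 to 2135 CPM in the control females, 1672 to 2999 CPM in 6 castrated libraries, 8177 CPM in I and 7519 CPM in J. In bulk samples, fewer cells of a type and less RNA per cell cannot be told apart.

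Of 11960 autosomal genes tested, 167 (1.4%) differed between castrated male and control female ASC2 at a Benjamini-Hochberg adjusted p below 0.05 in edgeR's quasi-likelihood test. Expression was lower in castrated males for 130 of them (1.09% of those tested) and higher for 37 (0.309%). Over all 12464 genes tested, X- and Y-linked ones included, 176 differed (1.41%), 38 higher (0.305%) and 138 lower (1.11%), and these are the shares against which the lists below are read. Of the 394 genes on X and Y, 9 differed (2.28%), with Cfp higher and Xist, Tsix, Srpx, Itm2a, Klhl13, S100g, Rab9 and Rtl3 lower in castrated males. The share of lower genes among the autosomal ones was 77.8%, and it was 66.1% when libraries were scaled by their size alone and 67.8% in DESeq2. The median log2 fold change over all genes was 0.01. Without C, D, I and J, 39 autosomal genes passed (0.326%), 36 lower (0.301%) and 3 higher (0.0251%). Of these, 37 were among the 167, and all 167 kept their direction. In 12 autosomal genes (0.1%) the 8 castrated values did not overlap the 8 female values. C4b, Cldn11, Eln, Akr1c14, Plac8, Adh1, Spon2, Mrgprf, Immp1l and 2610507I01Rik were lower in every castrated library, and D1Ertd622e and Rundc1 were higher. Of the 12, Immp1l, 2610507I01Rik and Rundc1 did not pass the test (adjusted p = 0.053, 0.0905 and 0.219 in edgeR).

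**Figure D2:**
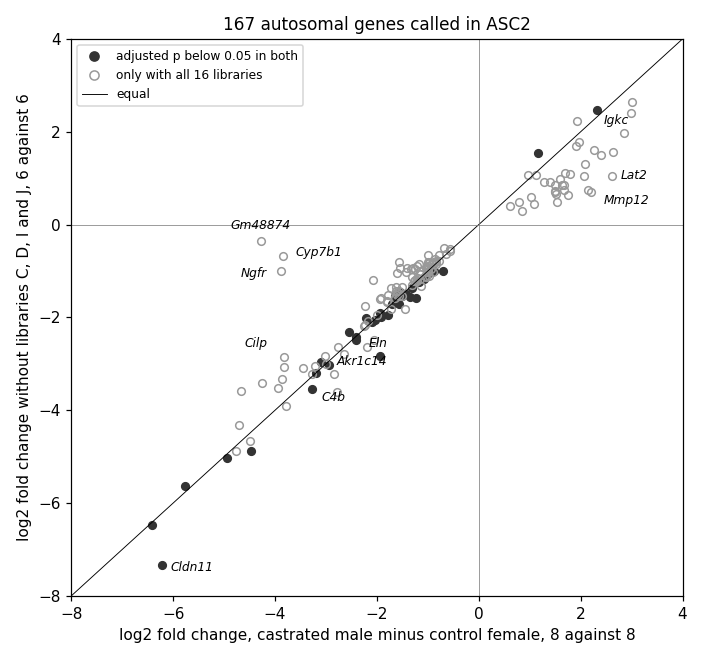
Log2 fold change (castrated male minus control female) of the 167 autosomal genes that differed with all 16 libraries (x axis) against that without C, D, I and J (y axis); filled points passed in both, and the line marks equal values. C4b, Eln, Akr1c14 and Cldn11 lie near the line on the lower side, whereas Ngfr, Cyp7b1, Gm48874 and most of the higher genes move towards zero.

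Among steroid-metabolizing enzymes, 2 of 16 tested genes were lower in castrated males, Akr1c14 and Cyp7b1, and none was higher (median log2 fold change -0.01, against 0.01 over all genes). Akr1c14 encodes a 3-alpha-hydroxysteroid dehydrogenase that inactivates dihydrotestosterone and acts on progesterone metabolites. Its lowest, median and highest values were 11.5, 17.6 and 29.1 CPM in castrated males and 62.9, 105 and 472 CPM in control females. Every control female library was above every castrated library, and female library E was far above the rest. The log2 fold change was -3.10 (SE 0.41, adjusted p = 1.08e-06 in edgeR), -2.95 without C, D, I and J (adjusted p = 3.87e-04) and -3.29 against C and D alone (adjusted p = 2.82e-05). The Akr1c genes are close copies of each other, so reads may be shared between them. Cyp7b1, a hydroxylase of oxysterols and androgens, was at 0, 1.89 and 6.37 CPM in castrated males against 0, 4.95 and 166 CPM in control females. The groups overlapped, and the difference rested on C and D, with a log2 fold change of -3.83 (SE 0.97, adjusted p = 0.0243) that was -0.32 without C and D (adjusted p = 0.973).

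Cldn11, a tight-junction claudin known from myelin and the testis, was detected in 1 of 8 castrated libraries (J, 1.27 CPM) and in all 8 control female libraries (5.50, 11.7 and 95.4 CPM). That was 1 read against 153 over the 8 libraries of each group, a ratio at equal depth of 149.6 (exact 95% interval 26.4 to 5948, for counting error only). The difference passed in edgeR (adjusted p = 1.08e-06), without the 4 libraries (adjusted p = 9.02e-05), when no castrated library held a read, and against C and D alone (adjusted p = 2.84e-04). As Akr1c14 and Cldn11 showed the clearest separation among genes with a promoter in the reference table, their promoters are printed from RefSeq (GRCm38.p6; 250 bases before to 50 after the start of the gene). Neither held the estrogen response element palindrome (GGTCA and TGACC with 3 bases between them), the nuclear receptor half-site AGGTCA, the androgen and glucocorticoid palindrome (AGAACA and TGTTCT with 3 bases between them) or the AP-1 site TGANTCA on either strand, so no base is in capitals.
Akr1c14 (chr13:4059341-4059640, plus strand): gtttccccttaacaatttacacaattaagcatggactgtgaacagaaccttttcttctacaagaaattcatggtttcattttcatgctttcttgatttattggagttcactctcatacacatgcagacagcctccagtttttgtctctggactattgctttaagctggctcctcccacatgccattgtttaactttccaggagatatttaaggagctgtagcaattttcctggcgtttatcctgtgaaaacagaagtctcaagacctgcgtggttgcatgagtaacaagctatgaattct
Cldn11 (chr3:31149670-31149969, plus strand): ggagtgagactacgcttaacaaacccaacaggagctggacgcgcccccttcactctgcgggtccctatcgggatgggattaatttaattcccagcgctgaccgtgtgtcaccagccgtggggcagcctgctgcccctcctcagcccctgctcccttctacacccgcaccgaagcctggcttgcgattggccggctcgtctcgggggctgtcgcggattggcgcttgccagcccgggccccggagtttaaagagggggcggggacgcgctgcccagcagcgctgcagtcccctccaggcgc
Over 32851 promoters, the estrogen palindrome was found in 0.07%, AGGTCA in 16.3%, the androgen palindrome in 0.00913% and TGANTCA in 7.81%. The estrogen palindrome can overlap the half-site, and a match is a description of the letters alone. Counted by gene, AGGTCA was in 18.1% and TGANTCA in 8.97% of the genes searched. Of the 130 lower genes, 90 had a promoter in the table, and 14 (15.6%) held AGGTCA, 4 (4.44%) TGANTCA and 0 either palindrome.

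In the complement list, 4 of 19 tested genes were lower in castrated males (C4b, C1ra, Cd55 and C1qtnf1), and none was higher (median log2 fold change -0.86). The list did not hold Cfp, the X-linked gene of the complement factor properdin, which was higher in castrated males. Cfp did not pass in edgeR without I and J (1.02, adjusted p = 0.198) or without the 4 libraries (0.97, adjusted p = 0.448). C4b, the complement factor cleaved by the C1 complex, showed the smallest p-value of all autosomal genes. It was at 23.9, 65.7 and 94.3 CPM (lowest, median, highest) in castrated males against 139.8, 537 and 1249.6 CPM in control females. The groups did not overlap, and the lowest female values were those of A and F, which were also lowest in Xist. The log2 fold change was -3.27 (SE 0.34, adjusted p = 1.14e-09), -3.55 without the 4 libraries (adjusted p = 2.52e-08) and -3.16 against C and D alone (adjusted p = 7.15e-08). C4b and C4a are near-identical, so their reads cannot be separated with certainty. C1ra, a protease of the C1 complex, was at 91.4, 215 and 472 CPM in castrated males against 215, 545 and 1086 CPM in control females (log2 fold change -1.16, adjusted p = 0.0121). Its groups overlapped, and it did not pass without the 4 libraries (-1.18, adjusted p = 0.0975). Cd55, which protects cells from complement and marks ASC2, had a log2 fold change of -1.32 (adjusted p = 0.0286), and -1.14 without the 4 libraries (adjusted p = 0.302). C1qtnf1, a secreted relative of C1q, had one of -1.15 (adjusted p = 0.0327), and -0.99 without them (adjusted p = 0.317).

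Elastic fibre and matrix genes were also among the lower ones. Of 35 matrix glycoprotein and remodelling genes, 5 were lower (Eln, Ltbp4, Timp3, Cilp and Mfap4) and 1 was higher (Ltbp2), with a median log2 fold change of -0.38. Eln, which encodes tropoelastin, was at 19.2, 60.9 and 77.7 CPM in castrated males against 106, 240.5 and 526 CPM in control females. No castrated library reached the lowest female library, and the log2 fold change was -2.41 (SE 0.32, adjusted p = 1.08e-06), -2.43 without the 4 libraries (adjusted p = 1.10e-04) and -2.46 against C and D alone (adjusted p = 1.83e-04). Ltbp4, which binds latent TGF-beta and is needed for elastic fibre assembly, was at 12.1, 14.7 and 33.6 CPM in castrated males against 13, 82.4 and 150.5 CPM in control females. Female libraries A, D and F were below castrated library O, the other 5 were above all castrated libraries, and its log2 fold change was -2.22 (SE 0.38, adjusted p = 2.66e-04), or -2.02 without the 4 libraries (adjusted p = 0.00928). Cilp, a cartilage matrix protein, had a log2 fold change of -3.83 (adjusted p = 7.15e-04) and Mfap4, a microfibril protein, one of -2.24 (adjusted p = 0.0244), and neither passed without the 4 libraries (-2.85, adjusted p = 0.134, and -1.76, adjusted p = 0.371). Timp3, an inhibitor of matrix proteases, had one of -0.97 (adjusted p = 0.0222), and -0.84 without the 4 libraries (adjusted p = 0.257). Ltbp2, a relative of Ltbp4, was at 2.90, 27.2 and 464 CPM in castrated males against 0, 19.1 and 61.1 CPM in control females. The log2 fold change of 2.14 (adjusted p = 0.0442) turned to -0.13 without I and J (adjusted p = 0.966).

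Among collagens, 2 of 25 chains were lower (Col1a1 and Col3a1) and none was higher, with a median log2 fold change of -0.46. Col3a1, the chain of type III collagen, was at 1834, 2989 and 5423 CPM in castrated males against 2163, 6881 and 11022 CPM in control females. The ranges overlapped, with a log2 fold change of -1.08 (SE 0.24, adjusted p = 0.00849) and -1.17 without the 4 libraries (adjusted p = 0.0436). Col1a1, of type I collagen, had a log2 fold change of -1.03 (adjusted p = 0.0194) and did not pass without the 4 libraries (-0.93, adjusted p = 0.187). Of 10 small leucine-rich proteoglycans, which space collagen fibrils, 2 were lower, Lum (log2 fold change -1.02, adjusted p = 0.00909) and Ogn (-1.16, adjusted p = 0.0144). Neither passed without the 4 libraries (adjusted p = 0.11 and 0.214). Of 12 fibroblast markers, 4 were lower (Col1a1, Col3a1, Gsn and Lum), and Gsn, an actin-severing protein with a secreted form, had a log2 fold change of -1.65 (SE 0.29, adjusted p = 4.53e-04), and -1.54 without the 4 libraries (adjusted p = 0.0144). Their summed level was 15290 to 29979 CPM in castrated males and 18497 to 57592 CPM in control females, and its part in the single-gene results was not tested. Of 16 ASC2 markers, 1 (Cd55) was lower and 15 had a log2 fold change below zero (median -0.69). Dpp4, the gene of the sorted protein, was at 119 ± 54.3 CPM (SD, n = 8) in castrated males and 248 ± 130.3 CPM (SD, n = 8) in control females, a log2 fold change of -1.07 that did not pass (adjusted p = 0.096 in edgeR).

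Secreted proteins and receptors outside these families included several of the lower genes that passed with and without the 4 libraries. Gpx3, the secreted glutathione peroxidase, was at 354, 433 and 1328 CPM in castrated males against 1111, 3297 and 5125 CPM in control females. Only J among the castrated libraries reached the female range. Its log2 fold change was -2.42 (SE 0.42, adjusted p = 4.15e-04) and -2.50 without the 4 libraries (adjusted p = 0.00353). Igfbp6, which binds insulin-like growth factor 2, had a log2 fold change of -1.32 (SE 0.23, adjusted p = 4.15e-04) and was the 1 gene called of 13 in the insulin-like growth factor list. Sfrp4, a secreted Wnt antagonist, had one of -1.43 (SE 0.29, adjusted p = 0.00278) and was the 1 gene called of 25 in the Wnt list. Both passed without the 4 libraries (-1.36, adjusted p = 0.00633, and -1.49, adjusted p = 0.0266). Against C and D alone Sfrp4 passed (-1.40, adjusted p = 0.0359) and Igfbp6 did not (-1.10, adjusted p = 0.0589). The spondins Spon1 and Spon2, secreted proteins of the matrix, were lower as well. Spon1 was at 1.71, 8.93 and 20.8 CPM in castrated males against 11.1, 83.9 and 132 CPM in control females, with a log2 fold change of -2.95 (SE 0.57, adjusted p = 0.00174) and -3.03 without the 4 libraries (adjusted p = 0.0292). Spon2 was at 75.6, 283 and 339 CPM in castrated males against 459.6, 506 and 659 CPM in control females. Its groups did not overlap, and it did not pass once C, D, I and J were all left out (log2 fold change -1.21, SE 0.24, adjusted p = 0.00249; without them -0.90, adjusted p = 0.134).

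The next 3 genes encode a neurotrophin and its receptors, and were put together after their values were seen. Ntrk2, the receptor of brain-derived neurotrophic factor, was at 4.79, 8.09 and 27.2 CPM in castrated males against 20.4, 43.8 and 80.8 CPM in control females (log2 fold change -2.10, SE 0.33, adjusted p = 7.85e-05; without the 4 libraries -2.11, adjusted p = 0.00165). Ntf3, the gene of neurotrophin 3, had 0 reads in the castrated libraries and 0, 2.83 and 19 CPM in control females, so its mean was at least 9.93-fold higher in control females, with the castrated group set to 3 counts over its libraries (adjusted p = 0.00174; without the 4 libraries 0.02). The low-affinity receptor Ngfr had a log2 fold change of -3.89 (adjusted p = 0.0169) that was -1.01 without the 4 libraries (adjusted p = 0.879), and in control females it ranged from 3.67 to 393 CPM. Of 26 chemokine, cytokine and receptor genes, 2 were lower (Il1r2 and Il4ra) and 2 higher (Ccl9 and Il1rn). Neither higher gene passed in edgeR without the 4 libraries (Ccl9 0.86, adjusted p = 0.545, and Il1rn 0.91, adjusted p = 0.544). Il1r2, the decoy receptor of interleukin 1, was at 42.2, 84.5 and 136 CPM in castrated males against 126, 174 and 643 CPM in control females. The ranges met only at their ends (log2 fold change -1.50, SE 0.30, adjusted p = 0.00197; without the 4 libraries -1.54, adjusted p = 0.0167). Against C and D alone Il1r2 did not pass (-0.97, adjusted p = 0.194). Il4ra, the interleukin 4 receptor, did not pass without the 4 libraries (-0.85, adjusted p = 0.257, against -1.18, adjusted p = 0.0184).

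**Figure D3:**
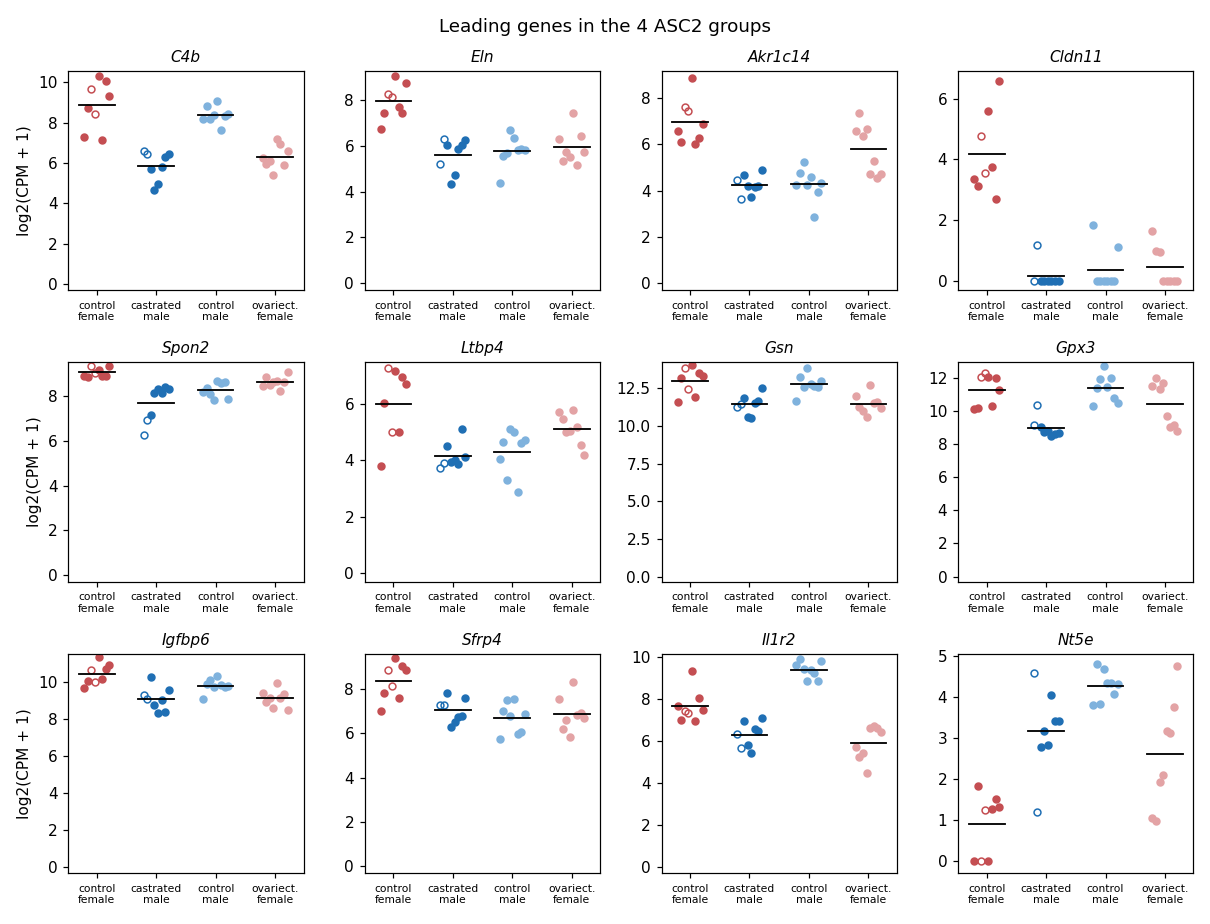
Log2(CPM + 1) of 12 genes in every library of the 4 ASC2 groups (control female, castrated male, control male, ovariectomized female); bars are group means, and open circles are C, D, I and J. C4b, Eln, Akr1c14, Cldn11 and Spon2 do not overlap between control females and castrated males, and Nt5e runs the other way.

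The immediate early genes, which are transcribed within minutes of stimulation or of tissue dissociation, all had a log2 fold change below zero in castrated males (21 of 21, median -0.93), and 7 were lower by the test: Fos, Fosb, Jun, Klf4, Nr4a1, Zfp36 and Hspa1a. Fos was at 157, 303 and 627 CPM in castrated males against 291, 991 and 2076 CPM in control females. Its groups overlapped (log2 fold change -1.48, SE 0.32, adjusted p = 0.00589). Fosb had the largest difference of the 7 (log2 fold change -2.55, SE 0.49, adjusted p = 0.00174) and Jun one of -1.62 (SE 0.34, adjusted p = 0.00346). Without the 4 libraries these 3 passed (Fos adjusted p = 0.047, Fosb 0.0425, Jun 0.0167) and the other 4 did not. Against C and D alone Fosb passed (adjusted p = 0.0168), and Fos and Jun did not (adjusted p = 0.157 and 0.269). The summed level of the list ran from 727 to 2240 CPM in castrated males and from 904 to 5407 CPM in control females. Female libraries A, D and F were at 904 to 1270 CPM, within the castrated range. The time from tissue to lysis was not given in the sources used here. Hspa1a shares most of its sequence with Hspa1b, so its reads may be divided between them.

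Some muscle transcripts were lower in castrated males. Myh3, the embryonic myosin heavy chain, and Myog, a transcription factor of myoblasts, had 0 reads in all 8 castrated libraries, with 0, 11.7 and 35.2 CPM and 0, 9.15 and 24.1 CPM in control females. Their means were at least 28.4-fold and 18.0-fold higher in control females, by the same floor of 3 counts (adjusted p = 0.00108 and 0.00149; without the 4 libraries 0.0146 and 0.0259). Of 5 tested skeletal muscle markers, Acta1 was lower (log2 fold change -3.22, SE 0.70, adjusted p = 0.00613; without the 4 libraries -3.05, adjusted p = 0.0962), and all 5 were below zero. The summed list was at 33.5 to 71.1 CPM in castrated males, against 16.5 to 264 CPM in control females, and its part in these results was not tested.

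Genes of macrophages and other myeloid cells were higher in castrated males, and they moved with libraries I and J. All 16 tested myeloid markers had a log2 fold change above zero (median 1.16), and 2 passed, Cd68 and Ctss. Cd68, a lysosomal protein of macrophages, was at 100.3, 142 and 562 CPM in castrated males against 65.9, 87.8 and 117 CPM in control females (log2 fold change 1.5, SE 0.39, adjusted p = 0.0327). Without I and J the log2 fold change was 0.81 (adjusted p = 0.411), and none of the 16 passed. None of them passed either without C and D, without E and K, against C and D alone or in limma voom, whereas DESeq2 called 4 (Cd68, Csf1r, Ctss and Lyz2). Leaving out single libraries ended the call of Cd68 in 7 of 16 fits (female C, D, E, G and H and castrated I and J). Mmp12, the macrophage elastase, which degrades elastin, was at 139, 271 and 1688 CPM in castrated males against 82.8, 137 and 167 CPM in control females (log2 fold change 2.20, SE 0.48, adjusted p = 0.00584; without I and J 0.86, adjusted p = 0.422). Mmp13, a collagenase, was at 9.70, 35.3 and 108 CPM and at 7.92, 13.1 and 22.4 CPM (log2 fold change 1.78, SE 0.35, adjusted p = 0.00195; without I and J 1.2, adjusted p = 0.104).

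Of the 37 higher genes, 28 had a promoter in the RefSeq table, and 8 of these (28.6%) held the AP-1 site TGANTCA: Ccl9, Cd68, Gpnmb, Il1rn, Mmp12, Mmp13, Plaur and Slamf7. The share over all genes searched was 8.97%. None of the 8 passed in edgeR without C, D, I and J (adjusted p from 0.308 for Mmp13 to 0.785 for Gpnmb). Of the 37 higher genes, 2 passed there, so these shares describe genes called largely with those libraries included. The half-site AGGTCA was in 7 (25%, against 18.1% of all genes), and 0 held either palindrome. The promoters of Mmp12 and Mmp13 are printed because both genes encode matrix proteases and hold the AP-1 site. Capitals mark AGGTCA and TGANTCA on either strand (for Mmp12 at 99 and 44 bases before the start, for Mmp13 at 35 bases before it).
Mmp12 (chr9:7347124-7347423, plus strand): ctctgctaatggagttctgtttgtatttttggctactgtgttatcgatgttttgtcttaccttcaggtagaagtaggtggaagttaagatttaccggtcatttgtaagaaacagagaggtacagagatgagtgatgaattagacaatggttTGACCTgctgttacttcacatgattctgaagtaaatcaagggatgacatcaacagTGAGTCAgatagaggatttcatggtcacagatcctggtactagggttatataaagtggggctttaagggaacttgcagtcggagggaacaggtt
Mmp13 (chr9:7272264-7272563, plus strand): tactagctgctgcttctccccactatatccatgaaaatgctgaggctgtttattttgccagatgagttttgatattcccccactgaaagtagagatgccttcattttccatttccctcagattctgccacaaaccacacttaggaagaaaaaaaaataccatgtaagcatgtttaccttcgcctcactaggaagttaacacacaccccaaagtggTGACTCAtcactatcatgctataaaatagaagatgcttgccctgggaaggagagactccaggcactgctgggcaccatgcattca

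**Figure D4:**
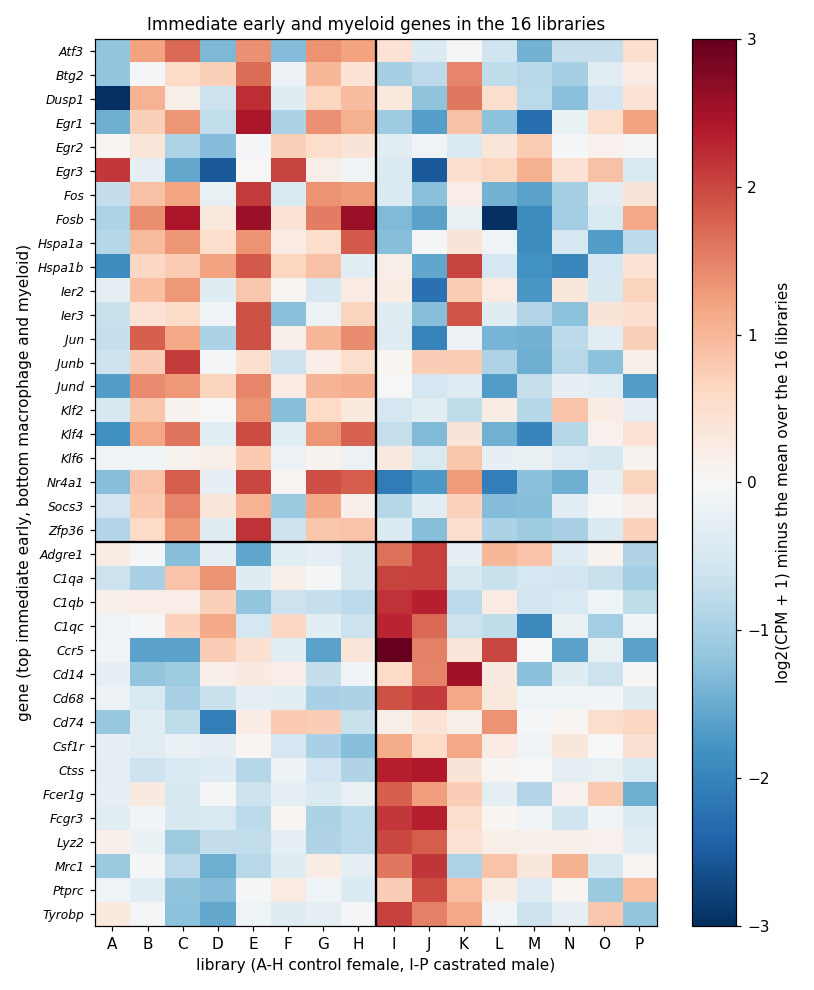
Log2(CPM + 1) of each gene in each of the 16 libraries, minus its mean over the 16, for the 21 immediate early genes (top) and the 16 tested myeloid genes (bottom); columns A to H are control females and I to P castrated males. The summed immediate early level was 2619 to 5407 CPM in B, C, E, G and H and 904 to 1270 CPM in A, D and F, although Egr2 and Egr3 did not follow this order, and most myeloid genes stand out in I and J.

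A few higher genes did not follow I and J. Igkc, the constant region of the immunoglobulin kappa chain, was at 14.0, 29.5 and 255 CPM in castrated males against 4.75, 10.3 and 25.2 CPM in control females (log2 fold change 2.32, SE 0.51, adjusted p = 0.007; without the 4 libraries 2.47, adjusted p = 0.0208). Castrated library L held the 255 CPM, and without L the gene did not pass (log2 fold change 1.35, adjusted p = 0.175). Nt5e, which encodes CD73 and makes adenosine from AMP outside the cell, was at 1.27, 8.78 and 23 CPM in castrated males against 0, 1.38 and 2.55 CPM in control females. Only the lowest castrated library was within the female range. Its log2 fold change was 3.01 (SE 0.60, adjusted p = 0.00249), 2.86 without I and J (adjusted p = 0.00909) and 2.64 without all 4 libraries (adjusted p = 0.0597). Entpd2, an ecto-enzyme that hydrolyses ATP upstream of CD73, moved the other way (log2 fold change -1.79, SE 0.31, adjusted p = 3.81e-04; without the 4 libraries -1.94, adjusted p = 0.00448). The long noncoding RNA Neat1 did not pass with all 16 libraries (log2 fold change 0.88, adjusted p = 0.241) and passed without the 4 (1.57, adjusted p = 0.0211) and without C and D (1.72, adjusted p = 0.00307), and its log2 fold change was -0.31 against C and D alone (adjusted p = 0.811).

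The study drew up lists of sexually dimorphic genes from its single-cell and bulk data of other libraries, and they were read here in animals without testes. Of 13 genes higher in females on that list, 4 were lower in castrated males (Akr1c14, Spon2, Il4ra and Xist; median log2 fold change -1.18) and none was higher. Without the 4 libraries only Akr1c14 passed (median -0.44, Xist adjusted p = 0.129). Against C and D alone 6 were lower, with Pgr and Fbxw17 added (median -1.80). Of 25 tested genes higher in males, 1 was higher (Nt5e) and none was lower (median 0.06). That list holds the Y-linked genes Ddx3y and Eif2s3y, and 6 of the control female libraries held Y-linked reads. Against C and D alone Ddx3y and Eif2s3y were higher, and Nt5e did not pass (adjusted p = 0.0654 in edgeR). Of 8 genes from the bulk-only female list, Ltbp4 was lower, and of 20 from the bulk-only male list 0 passed in edgeR, DESeq2 or limma voom, with an unadjusted p below 0.05 in 2.

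Known hormone pathways were read through their receptors and targets. Of 6 tested sex steroid receptors, 0 passed in edgeR, DESeq2 or limma voom, and 2 had an unadjusted p below 0.05 in edgeR. Esr1, estrogen receptor alpha, was at 19.8 ± 8.64 CPM in castrated males and 39.7 ± 24.4 CPM in control females (SD, n = 8 each), a log2 fold change of -1.05 (SE 0.36, adjusted p = 0.148 in edgeR). Pgr, the progesterone receptor, changed sign with the 4 libraries (-1.43, adjusted p = 0.375 with them, and 0.37, adjusted p = 0.956 without them). Against C and D alone Pgr passed (-2.84, adjusted p = 0.0395), and without the female libraries A and F Esr1 passed (-1.31, adjusted p = 0.0363). None of 16 estrogen-responsive genes and none of 17 androgen- and glucocorticoid-responsive genes passed in edgeR (median log2 fold changes -0.08 and -0.15), with an unadjusted p below 0.05 in 4 and 1 of them. In DESeq2 and in limma voom, 1 estrogen-responsive gene was lower (Ccn5), and 0 of the other list passed. In the renin-angiotensin list, Enpep, which degrades angiotensin II, was the 1 gene of 10 that was lower (log2 fold change -1.0, SE 0.25, adjusted p = 0.0244; without the 4 libraries -1.0, adjusted p = 0.167), and Agt, the angiotensin precursor, was at 22.0 ± 14.6 and 12.1 ± 7.71 CPM (SD, n = 8 each; adjusted p = 0.409 in edgeR). Ace, which makes angiotensin II, was at 75.4 ± 54.6 and 121 ± 74.7 CPM (SD, n = 8 each, adjusted p = 0.564 in edgeR).

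**Figure D5:**
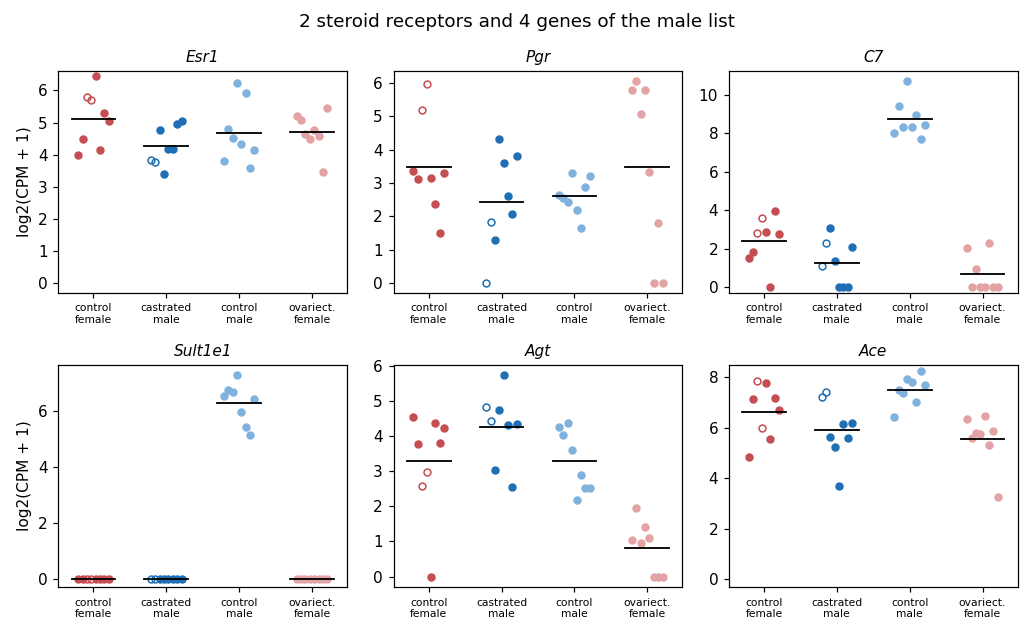
Log2(CPM + 1) of the receptors Esr1 and Pgr and of C7, Sult1e1, Agt and Ace in every library of the 4 ASC2 groups; bars are group means, and open circles are C, D, I and J. Receptor values overlap between control females and castrated males, and C7 and Sult1e1 are high only in control males among these 4 groups.

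The other ASC2 groups show where these levels lie. Control males and ovariectomized females (operated on at 4 weeks) had 8 ASC2 libraries each. Of these, 4 of the control male libraries held Xist of at least 15 CPM beside Y-linked reads, and 4 of the ovariectomized libraries held Tcf21 of at least 5 CPM. These groups are set side by side as values, with no test. C7, a late complement component, and Sult1e1, which sulfates estrogens, were at 533 ± 479.8 and 84.6 ± 38.7 CPM in control males (SD, n = 8), and at 2.13 ± 2.54 and 0 CPM in castrated males. In control females they were at 6.0 ± 4.84 and 0 CPM. For Sult1e1 the 0 reads allow up to 0.543 CPM in castrated males and 0.531 CPM in control females, taking 3 counts over a group's libraries. Cldn11 was at 0.159 ± 0.451 CPM in castrated males, 26.9 ± 31.0 in control females, 0.473 ± 0.953 in control males and 0.498 ± 0.774 in ovariectomized females. Thus the control females alone had a mean above 1 CPM. Eln was at 52.5 ± 22.7 CPM in castrated males, 275 ± 143 in control females, 58 ± 24.5 in control males and 69.8 ± 45.3 in ovariectomized females, and Sfrp4 had the same order of control females above the other 3 groups (138 ± 51.2, 369.5 ± 192, 112 ± 50.6 and 132 ± 83.3 CPM). Akr1c14 was at 18.8 ± 5.98, 157 ± 136, 20.1 ± 8.78 and 69.1 ± 50.2 CPM in the same order of groups. The ovariectomized mean combined 2 levels, with 82.5 to 163 CPM in the 4 libraries with Tcf21 and 22.3 to 38.5 CPM in the other 4, close to the male groups. C4b was at 63.1 ± 27.1, 604 ± 413, 345 ± 107 and 83.5 ± 35.3 CPM, and Il1r2 at 83.6 ± 33.7, 234 ± 171, 698 ± 182 and 67.5 ± 32.8 CPM. In these genes both gonadectomized groups had lower means than both control groups. Gpx3 was at 556 ± 319, 2978 ± 1657, 3103 ± 1844 and 1915 ± 1466 CPM, and the ovariectomized libraries split in the same way (2629 to 4018 CPM with Tcf21 and 445 to 837 CPM without it). Inmt, a methyltransferase of indoles, was at 35.1 ± 17.2, 131 ± 83.7, 313 ± 136 and 39.1 ± 8.49 CPM. Nt5e was at 9.85 ± 6.68, 1.08 ± 0.967, 18.8 ± 5.01 and 7.73 ± 8.27 CPM, so that control females had the lowest mean. Its ovariectomized mean also combined 2 levels, with 0.96 to 3.29 CPM with Tcf21 and 7.69 to 25.7 CPM without it. ASC1 libraries entered the fit, which shares its estimate of spread over all 58 libraries, but their own comparison is not described, since all 8 ASC1 libraries labelled castrated male held Xist (51.9 to 118.5 CPM) and few Y-linked reads. With only the 16 ASC2 libraries in the fit, 72 autosomal genes passed. The interaction of group and cell type passed in 295 genes (2.37%) as labelled and in 179 with the ASC1 direction turned.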

How the data were processed

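RNA of sorted ASC1 and ASC2 was sequenced with Smart-seq3. The authors trimmed reads with NGmerge and quantified them with Salmon against a mouse transcriptome index. In the paper, a STAR alignment to GRCm39 served the quality metrics. The submitters' processing notes name STAR 2.7.10a, Salmon 1.9.0, FastQC 0.11.9, MultiQC 1.12, SAMtools and bcl2fastq. The authors deposited estimated counts per gene over UMI and non-UMI reads, without normalization (15.0% of values above 0 were not whole numbers), and removed libraries with few detected genes. Estimated counts from near-copies are divided by the quantification and are uncertain for C4b and C4a, Hspa1a and Hspa1b, H2-K1 and its relatives, the Akr1c genes, Ccl9 and Igkc.

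Here, counts of 56953 genes were rounded, and the 12464 genes that reached 5 reads in more than 3 of the libraries were tested with edgeR 4.0.16 in R 4.3.3 (TMM scaling, quasi-likelihood test, 8 groups of 58 libraries in a single fit that shares the spread, Benjamini-Hochberg adjustment over all genes, threshold 0.05). Of these, 11960 were autosomal, 394 X- or Y-linked, 17 mitochondrial and 93 were not matched. Symbols and chromosomes came from an older annotation (GRCm38) by gene ID. CPM use TMM library sizes, fold changes are edgeR's fitted values, and the biological coefficient of variation was 35.6%. No 2 libraries were copies within counting noise. The precision rests on 8 libraries a group. Alternatives used limma 3.58.1, DESeq2 1.42.0, other scaling and filters and left-out libraries, and the test was checked on simulated counts. Figures used matplotlib 3.10.9.

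Named genes were called autosomal genes with a mean of at least 10 CPM in either group. Up to 15 in each direction were taken by the largest log2 fold change, so these fold changes were selected for size. The called genes of 40 lists (648 genes, 2 symbols not matched) were named as well. Members and lists were chosen with earlier results of these data known. Further genes, the promoters and the alternatives without C, D, I and J, without 2 of these, or without E and K, and the ASC1 contrast turned, were chosen after values were seen. A gene of the receptor list is not reported here.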

Additional observations from a re-analysis of the deposited data

Results flagged for a closer look

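In 25 of 158 groups of 8 values (15.8%), a single library lay far from the rest. The cutoff flags about 1 in 20 groups of normally distributed values. Raw CPM need not follow that distribution, and a lone read can be flagged (Cldn11 in J). The share is therefore no measure of an excess over chance. Among castrated males, library P was far above in Fosb (64.7 CPM), Jun (113 CPM), C1qtnf1 (116 CPM) and Gm48874 (6.47 CPM). P was also the shallowest castrated library. Library J stood out in Gpx3 (1328 CPM), Il4ra (498 CPM) and Cldn11 (1.27 CPM), and I in H2-K1 (412 CPM). K was highest in Acta1 (21.8 CPM), Myl1 (4.35 CPM) and Tnni1 (4.35 CPM), O in Abcc9 (7.99 CPM), Ltbp4 (33.6 CPM) and Xist (7.99 CPM), L in Igkc (255 CPM) and Gm38025 (4.79 CPM), and M in Gdf10 (6.03 CPM). Among control females, library E was far above in Akr1c14 (472 CPM), Il1r2 (643 CPM), Itga2b (49.1 CPM), Krt19 (211 CPM) and Tsix (39.6 CPM). H stood out in Cldn11 (95.4 CPM), A in Fermt3 (24.1 CPM) and D in Mfap4 (259 CPM).

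By the labels, the castrated minus female difference was not the same in ASC2 and ASC1 for 295 of 12464 genes (2.37%, interaction term in edgeR). The direction of the ASC1 comparison is in doubt: all 8 ASC1 libraries labelled castrated male held Xist at 51.9 to 118.5 CPM with Y-linked reads of at most 4.72 CPM, and 5 of 8 labelled control female held Y-linked reads. With the ASC1 direction turned, 179 genes passed (1.44%), and 8 passed both ways with the same sign. Of the 15 genes that follow, C4b (-4.38, adjusted p = 1.39e-09), Cldn11 (-5.88, adjusted p = 0.0249) and Ltbp4 (-2.22, adjusted p = 0.0184) passed with the direction turned, and the other 12 did not. As labelled, ASC2 minus ASC1 differences in log2 fold change were -2.15 for C4b (adjusted p = 0.00243), -5.38 for Akr1c14 (7.79e-08), -6.58 for Cldn11 (0.00223), -1.36 for Spon2 (0.0144) and -2.22 for Ltbp4 (0.012). They were -3.20 for Gpx3 (4.02e-04), -4.09 for Spon1 (5.40e-04), -5.43 for Cilp (1.77e-04), -5.27 for Cyp7b1 (0.00709) and -7.73 for Ngfr (1.22e-04). In the other direction they were 6.06 for Nt5e (4.78e-06), 4.27 for Mmp12 (7.55e-05), 1.82 for Mmp13 (0.0373), 2.79 for Cd68 (0.00128) and 3.10 for Ctss (7.45e-04).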

How the results depend on the processing

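The count of 167 autosomal genes (37 higher, 130 lower) and of 44 list genes moved by over 1.5 times with the libraries included. Without C, D, I and J there were 39 (3 higher, 36 lower; 13 list genes), without I and J 79 (6, 73; 25), without C and D 95 (19, 76) and without E and K 107 (82 lower; 27 list genes). Without the control female libraries A and F, low in Xist, there were 291 (61, 230; 72 list genes), and against C and D alone, the female libraries without Y-linked reads, 252 (69 higher). Fitting only the 16 libraries gave 72 (18, 54; 21 list genes), and no filter on low counts gave 291 (87, 204; 69 list genes). Higher genes numbered 56 with library-size scaling, 66 in DESeq2 and 19 in limma voom. Leaving out each library in turn gave 85 (without female C) to 263 (without castrated K) genes, 11 to 67 higher, 66 to 196 lower and 22 to 56 list genes; counts were also low without female E (88) and castrated I (87). Of 68 named genes past the threshold, 27 passed in all 16 of these fits. The interaction with ASC1 passed in 295 genes, and in 179 with the ASC1 direction turned. Among all named genes, the direction turned in Ltbp2 (-0.13 without I and J), Neat1 (-0.31 against C and D alone) and Pgr (0.37 without the 4 libraries). The cause of these changes was not tested. No paired analysis was possible because castrated males (I to P) and control females (A to H) share no replicate letter. Depth limits genes under a few CPM, where a single read is worth 1 CPM or more.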

Other observations

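Further lower genes passed with all 16 libraries and without C, D, I and J. Plac8, a small cysteine-rich protein, was at 91.4, 284 and 425 CPM (lowest, median, highest) in castrated males against 464, 709 and 2526 CPM in control females. Its groups did not overlap (log2 fold change -2.04, SE 0.33, edgeR adjusted p = 1.18e-04). Itga2b, the platelet integrin alpha IIb, had a log2 fold change of -3.20 (adjusted p = 2.66e-04) and Inmt one of -1.94 (adjusted p = 7.15e-04). Fap, a serine protease of fibroblasts related to Dpp4, had one of -1.34 (adjusted p = 0.00217), and Lsp1, an actin-binding protein, one of -1.03 (adjusted p = 0.00149). Scara5, a ferritin receptor, and Steap3, a ferrireductase, both act in iron uptake, with log2 fold changes of -1.71 (adjusted p = 0.00247) and -0.88 (adjusted p = 0.0041). Tgm2, which cross-links matrix proteins, had one of -1.93 (adjusted p = 0.0244). Without the 4 libraries the adjusted p was 0.00213 for Plac8, 0.00156 for Itga2b, 0.0064 for Inmt, 0.00672 for Fap, 0.00672 for Lsp1, 0.0292 for Scara5, 0.0139 for Steap3 and 0.00928 for Tgm2. Against C and D alone Itga2b, Inmt and Fap did not pass (adjusted p = 0.322, 0.24 and 0.072). Plac8, Lsp1, Scara5, Steap3 and Tgm2 passed there. Tgm2 did not pass in edgeR without C and D (adjusted p = 0.0683), and leaving out single libraries ended its call in 6 of 16 fits. Female library H held 362 CPM of Tgm2, and the other control females 11.1 to 101 CPM. Ccn5, a secreted matricellular protein, passed without the 4 libraries (-2.02, adjusted p = 0.00916) and not with them (-1.24, adjusted p = 0.0631).

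Of 35 cell cycle genes, 0 passed in edgeR, 4 had an unadjusted p below 0.05, and 33 had a log2 fold change above zero (median 0.33). DESeq2 called 1 of them higher (Pcna) and limma voom 2 (Pcna and Mcm3). Their summed level was 1288 to 4601 CPM in castrated males and 1017 to 4176 CPM in control females. Of 27 TGF-beta and BMP genes, 2 were lower (Gdf10 and Tgfbr2), and Gdf10 was also the 1 gene called of 18 ASC1 markers. Of 30 interferon-stimulated genes 2 were lower (H2-K1 and Ifi27l2a), and of 20 adipogenic and lipid-handling genes 1 (Klf4). Abcc9 was lower of 11 mural markers, and Krt19 of 9 mammary epithelial and of 6 mesothelial markers. Without the 4 libraries none of these lists had a call (adjusted p = 0.242 for Gdf10, 0.485 for Tgfbr2, 0.0831 for H2-K1, 0.192 for Ifi27l2a, 0.242 for Klf4, 0.159 for Abcc9 and 0.267 for Krt19). Of 6 X-linked inactivation genes, Xist and Tsix were lower, and neither passed without the 4 libraries (adjusted p = 0.129 and 0.0607). In edgeR none passed among the angiogenic (20 tested, 5 with an unadjusted p below 0.05), acute-phase (8, 2), endothelial (12, 4), lymphocyte (2, 1), mature adipocyte (3, 0), Schwann cell (3, 0), anterior Hox (10, 0), posterior Hox (7, 1), depot transcription factor (10, 2) and Y-linked (4, 1) genes. DESeq2 called none of these either, and limma voom 1 endothelial gene (Egfl7, higher). Against C and D alone, the female libraries without Y-linked reads, 2 of the 4 Y-linked genes were higher (Ddx3y and Eif2s3y), with a median log2 fold change of the 4 of 6.36, against 1.00 with all libraries.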
